A study of Rattus norvegicus with 14 samples.

Results

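Liver of rats carried through the AAF/PH regimen, which brings out oval cells, was compared with liver of untreated rats across all genes of an expression array. The 3 AAF/PH samples and the 3 normal liver samples are 6 of the 14 samples of the series, and 1 further group of 3 was used as a second point of comparison. All rats were male F344, an inbred strain, and their ages are not given. AAF/PH rats received a 2.5 mg pellet of 2-acetylaminofluorene (AAF, a DNA-damaging arylamine), made to release over 14 days, in the peritoneum on day 1, lost part of the liver by surgical partial hepatectomy (PH) on day 7, and were killed on day 14, so that tissue was taken 7 days after surgery. Normal rats were unmanipulated. The third group, called placebo foci here, received diethylnitrosamine (200.0 mg/kg, a liver carcinogen) on day 1, the same AAF pellet on day 14, partial hepatectomy with a 21-day placebo pellet on day 21, and was killed on day 70. From these animals persistent lesions positive for GSTP were captured. The remaining samples, called rapamycin foci here, came from rats on the same schedule, with rapamycin (2.5 mg/kg a day) in the 21-day pellet. They entered neither comparison directly, but they add to the spread between animals, pooled over all groups, behind every standard error and call. No arm with AAF alone, surgery alone or sham surgery entered the comparison, so AAF, resection, regrowth and time since surgery cannot be told apart. Every sample was formalin-fixed, paraffin-embedded liver from which regions were taken by laser capture microdissection. The design text says that liver tissue was captured from AAF/PH and normal sections, and the labels give the feature of the AAF/PH samples as oval cells. How pure the captured regions were is not stated, so a change in cell makeup and a change in RNA per cell cannot be told apart in any result below.
Hepatocytes normally regrow the liver after part of it is removed. When AAF blocks their division, cells of the smallest bile ducts multiply instead and spread into the lobule as oval cells, small cells that carry duct markers and, in the rat, often alpha-fetoprotein. They travel with activated stellate cells and new matrix, and can mature into duct cells or hepatocytes. AAF itself is activated by liver P450 and sulfotransferase enzymes to products that bind DNA.
Levels are the deposited array intensities, in arbitrary linear units, and they are given in the order animal 1, animal 2 and animal 3. A difference is on the log2 scale, AAF/PH minus normal, with the standard error (SE) of a limma fit (n = 3 animals a group), so 1 unit is a 2-fold change. A gene is called, and said to have risen or fallen, where its p-value adjusted by the Benjamini-Hochberg method over 14497 genes was below 0.05. Of these genes 2900 were called (20.0%), 1093 higher (7.54%) and 1807 lower (12.5%) in AAF/PH liver. The falls were the larger changes, since 1232 genes (8.50%) were called at least 2-fold lower and 325 (2.24%) at least 2-fold higher. Without regard to a test, the values of the 3 AAF/PH and the 3 normal animals did not overlap for 7198 genes (49.7%). These shares are the background against which each gene group is read. For lists made up mostly of bright genes, the shares among the brightest genes, given next, are the closer background.
The falls sat among the brightest genes. When genes were split by mean level into 3 sets, 208 of the 4833 dimmest were called higher and 58 lower, 546 and 364 of the 4832 of middle level, and 339 and 1385 of the 4832 brightest. Among the brightest genes these shares are 7.0% higher and 28.7% lower. Array medians were 19.84 to 21.01 in normal and 22.75 to 23.75 in AAF/PH liver, and the interquartile range of log2 intensity was 2.36 to 2.80 against 1.98 to 2.25. The median difference over all genes was 0.12, and it became -0.08 after each array was centred on its median and 0.02 after quantile normalization. Of the main calls 37.7% were higher, against 20.0% after median centring and 52.8% with array weights. The pooled spread includes the rapamycin foci, of which the design text names 1 animal as an outlier, and without them 4854 genes were called. Leaving out single animals brought the calls to 1552 without normal animal 1, 1784 without normal animal 3 and 1798 without AAF/PH animal 2. Samples correlated at 0.985 to 0.993 within normal liver, 0.973 to 0.981 within AAF/PH liver and 0.899 to 0.936 between them, across genes, which are not independent replicates.

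**Figure D1:**
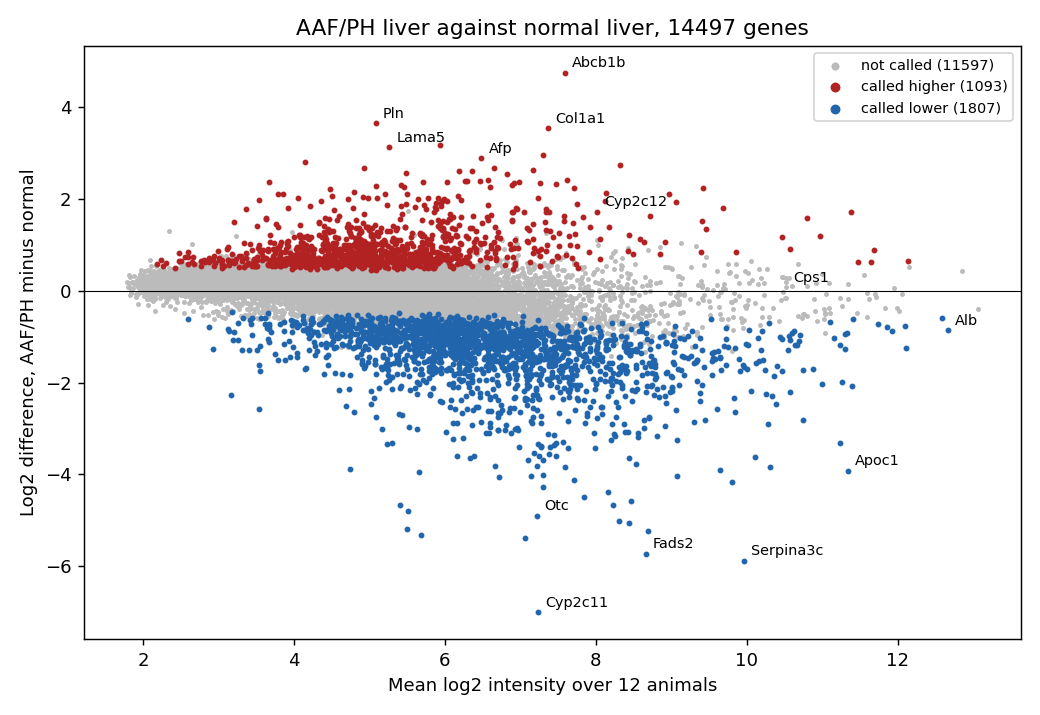
Log2 difference, AAF/PH minus normal liver, of each of 14497 genes (vertical axis) against its mean log2 intensity (horizontal axis), with genes called higher in red (1093), called lower in blue (1807) and genes not called in grey. The blue points reach further from 0 than the red ones and lie mostly at middle to high intensity, and Cyp2c11 is the lowest point at -7.00.

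The label of oval cells was read first against listed markers, which were chosen with earlier results of these data known. The counts are therefore no independent check of the label. Of 27 measured markers of oval and duct cells 16 were called higher (background 7.54%) and none lower, with a median difference of 1.13. Their summed intensity was 1291.9 to 1811.0 in normal and 3003.2 to 4139.2 in AAF/PH liver. The count became 9 of 16 with low-level genes removed. Under that alternative dim members of a list were not tested, here and in every list count below. Dmbt1, a secreted scavenger receptor of epithelia seen in reacting bile ducts, led them, at 20.4, 32.2 and 36.1 in normal and 236, 279.6 and 271 in AAF/PH animals, a difference of 3.19 ± 0.25 (SE, adjusted p = 1.09e-06). Krt19, the keratin that defines duct cells, was 16.9, 22.5 and 25.4 in normal and 65.3, 73.2 and 119 in AAF/PH liver and rose by 1.96 ± 0.45. The 3 AAF/PH animals lay above all normal animals for both genes. Cd44, the hyaluronan receptor, rose by 2.67 ± 0.26, and Cd24, a surface glycoprotein of progenitor cells, by 2.54 ± 0.30. Surface markers used to sort such cells were also called: Epcam rose by 1.39 ± 0.32 and Prom1 by 1.46 ± 0.26. So were Cftr (0.81 ± 0.18) and Sctr (1.28 ± 0.25), the chloride channel and the secretin receptor of secreting ducts, and Tnfrsf12a (1.62 ± 0.17), the receptor of the oval cell mitogen TWEAK. Spp1, which encodes osteopontin of duct cells and macrophages, was 13.7, 16.7 and 18.5 in normal and 32.9, 205 and 55.6 in AAF/PH animals, a difference of 2.15 ± 0.45, and the value of AAF/PH animal 2 stood far above the others.
Several duct markers were not called. Krt7, a duct keratin, was 15.3, 17.1 and 14.3 in normal and 25.2, 15.5 and 16.5 in AAF/PH liver (difference 0.26 ± 0.21, adjusted p = 0.385). Krt23 differed by 0.40 ± 0.22 (adjusted p = 0.197), and Lgr5, a Wnt-dependent stem cell receptor, by 0.23 ± 0.23 (adjusted p = 0.485). The keratins that hepatocytes share with ducts, Krt8 (1.00 ± 0.37) and Krt18 (0.59 ± 0.36), were not called either (adjusted p = 0.0668 and 0.257). All these markers had a level above 0 on every array, and the files hold no detection call, so no marker can be said to be absent. The mesothelial marker Msln rose by 1.66 ± 0.20, and 2 of 6 mesothelial markers were called, the other being Krt19.
Hepatocyte markers remained bright. Their summed intensity was 59426.5 to 67221.4 in normal and 30298.7 to 34035.9 in AAF/PH liver. Of 28 markers 19 were called lower (background 12.5%, and 28.7% among the brightest genes) and none higher (median -1.19). Alb, the main plasma protein gene, fell from 8291, 8291 and 7868 to 5020.1, 4307 and 4222, a difference of -0.86 ± 0.16 (SE, adjusted p = 0.00163). Serpina1, the liver's chief protease inhibitor, was 3477, 3726 and 3196 against 3393, 2771 and 2986 and was not called (adjusted p = 0.4). Tat (0.90 ± 0.42) and Pck1 (0.47 ± 0.29), glucocorticoid-responsive enzymes of amino acid breakdown and glucose synthesis, were not called (adjusted p = 0.145 and 0.249). Slc10a1, the bile acid uptake carrier of the sinusoidal membrane, lay at the other end, at 1240.2, 1329 and 1201 in normal and 44.8, 51.7 and 25.1 in AAF/PH animals (-5.02 ± 0.34). The AAF/PH samples held hepatocyte RNA at high levels together with raised oval cell markers, and the shares of the cell types were not measured.
Fetal and imprinted genes gave 9 called higher and none lower of 16 (median 0.83). Afp, the fetal counterpart of albumin, was 49.8, 69.2 and 63.8 in normal and 623, 203 and 719 in AAF/PH animals, a difference of 2.90 ± 0.36 (SE, adjusted p = 6.82e-05). The lowest AAF/PH animal was still above every normal one. Dlk1, a Notch-related surface protein of fetal hepatoblasts, was 25.3, 34.9 and 26.4 in normal and 182, 55.7 and 109.9 in AAF/PH liver (1.86 ± 0.33). Bex4, of a small X-linked family, rose by 2.81 ± 0.50, with AAF/PH animal 2 the lowest at 17.2 for Bex4 as it was for Afp and Dlk1. Gpc3, a fetal proteoglycan, rose by 0.98 ± 0.24. Igf2 (0.50 ± 0.21, adjusted p = 0.108), Hmga2 (0.29) and Cdkn1c (0.01) were not called. The count became 4 without normal animal 1 and 5 after median centring or without AAF/PH animal 3. Gpc3 lost the call without normal animal 1.
The promoters of 2 secreted liver proteins among the 10 largest rises are shown because each holds the same letters of an HNF1 motif (GTTAATNAT), a sequence bound by the hepatocyte factor HNF1. Beside Afp, Igfbp1, which encodes an insulin-regulated binder of insulin-like growth factors, was 94.7, 64.2 and 90.6 in normal and 229.6, 1322 and 874 in AAF/PH animals (2.97 ± 0.50, adjusted p = 7.93e-04). Each stretch holds 150 bases of the sense strand before the gene start of RefSeq's annotation for GRCr8, and capitals mark the match. Afp is chr14:17875646-17875795 on the minus strand and Igfbp1 chr14:86261127-86261276 on the plus strand.
Afp: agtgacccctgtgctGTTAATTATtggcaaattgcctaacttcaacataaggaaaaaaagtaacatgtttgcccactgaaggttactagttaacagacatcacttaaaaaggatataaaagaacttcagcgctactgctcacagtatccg
Igfbp1: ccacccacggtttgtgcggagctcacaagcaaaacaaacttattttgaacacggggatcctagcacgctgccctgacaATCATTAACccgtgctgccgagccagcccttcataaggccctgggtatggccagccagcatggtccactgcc
The match lies 135 to 127 bases before the start in Afp and 72 to 64 in Igfbp1, where it is read on the opposite strand. Of 12513 RefSeq windows, from 250 bases before to 50 after a start, 0.7% held these letters on either strand. The share was 0.3% of the 886 windows of genes called higher and 1.2% of the 1621 of genes called lower. A match is a description of the letters and does not show that a factor was bound.
Fibrous matrix and stellate cell genes rose together. Of 24 measured markers of hepatic stellate cells and myofibroblasts 16 were called higher and none lower (median 1.02), and their summed intensity was 1467.0 to 1822.2 in normal and 3679.5 to 7442.4 in AAF/PH liver. Col1a1, the main chain of fibrillar collagen, was 58.4, 62.6 and 62.3 in normal and 316, 2028 and 571 in AAF/PH animals, a difference of 3.55 ± 0.45 (SE, adjusted p = 7.59e-05). AAF/PH animal 2 stood highest for Col1a1, and again for Col3a1, at 293, 693 and 412 against 68.99, 64.3 and 78.3 in normal liver (2.64 ± 0.25). Tagln, which binds actin in smooth muscle-like cells, was 56.9, 51.1 and 78.5 in normal and 272, 292 and 426 in AAF/PH liver (2.40 ± 0.22), here with animal 3 the highest. Vim, the intermediate filament of mesenchymal cells, rose by 2.33 ± 0.33, and Timp1, an inhibitor of matrix proteases, by 1.57 ± 0.30. Acta2, the actin of myofibroblasts, was 293, 248 and 381 against 419, 599 and 667 and was not called (difference 0.86 ± 0.29, adjusted p = 0.0513). Markers of resting stellate cells, Lrat (-0.17 ± 0.28) and Reln (-0.02 ± 0.28), were not called (adjusted p = 0.674 and 0.96). In AAF/PH animal 2 alone, Lum (4.10, 47.98 and 5.12) and Postn (9.17, 52.5 and 10.8), proteins of fibrous matrix, stood well above normal liver, and neither was called.
Genes of the basement membrane, the sheet on which ducts rest, gave 7 called higher and none lower of 11. Lama5, a laminin chain, was 17.99, 17.4 and 18.7 in normal and 166, 111 and 213 in AAF/PH animals, a difference of 3.13 ± 0.21 (SE, adjusted p = 3.39e-07). Col4a1, the network collagen of this sheet, was 39.1, 38.5 and 45.5 in normal and 211, 249 and 297 in AAF/PH liver (2.61 ± 0.17). Both groups stayed far apart for these genes. Nid2 and Lamc1, which link and complete the network, rose by 1.30 ± 0.16 and 1.29 ± 0.26, whereas the laminin chains Lama1 (0.18) and Lama3 (0.05) were not called. Of 14 integrins, the receptors for this matrix, 5 were called higher and 1 lower. Itgb6 and Itgb4, both of epithelial cells, rose by 1.11 ± 0.23 and 0.85 ± 0.22, and Itga1, a collagen receptor of the normal sinusoid, fell (-1.08 ± 0.32). The basement membrane count became 4 after median centring or without normal animal 1, 2 or 3. The count of integrins called higher became 1 without AAF/PH animal 2 or without normal animal 1, 2 after median centring or over all probe sets or without normal animal 2, 3 with low-level genes removed or on log2(value + 16) or without AAF/PH animal 1 or 3 or without normal animal 3 and 8 with only the 6 arrays fitted or without the rapamycin foci. Itgb4 was no longer called without AAF/PH animal 2 and without normal animal 1. Itga1 did not pass the threshold after quantile normalization, without AAF/PH animal 1 or 2 and without normal animal 1 or 3.
Matrix proteases, their inhibitors and collagen cross-linking enzymes gave 12 called higher and none lower of 26 (median 0.64). Loxl1, which cross-links elastin and collagen, was 31.3, 33.3 and 36.7 in normal and 189, 162 and 291 in AAF/PH animals (2.62 ± 0.23, adjusted p = 3.05e-06). Mmp2, a gelatinase of stellate cells, was 39.6, 40.1 and 36.7 against 65.7, 161 and 115 (1.46 ± 0.25), with animal 2 the highest. The inhibitor Timp2 rose by 1.61 ± 0.25, and both plasminogen activators rose, Plat by 1.33 ± 0.24 and Plau by 1.00 ± 0.18. Mmp14, which activates Mmp2, was not called (0.58 ± 0.25, adjusted p = 0.111). The count became 6 of 14 tested with low-level genes removed.
The actin and tubulin cytoskeleton gave 20 called higher and 2 lower of 40 (median 0.84). Anxa2, a membrane-binding protein, was 35.9, 27.3 and 42.8 in normal and 150.4, 163 and 236 in AAF/PH liver (2.37 ± 0.45). Its partner S100a10 was 172, 157 and 189 against 728, 600.0 and 928 (2.10 ± 0.39), and S100a11 rose by 2.35 ± 0.55. For these 3 genes AAF/PH animal 3 stood highest, and all AAF/PH animals were above all normal ones. Flna, which cross-links actin, rose by 1.88 ± 0.25, and Ezr, which ties actin to the apical membrane, by 1.68 ± 0.29. The actins of all cells, Actb (0.15 ± 0.26) and Actg1 (0.51 ± 0.34), were not called. The 2 that fell were Vil1 (-1.39 ± 0.37), the bundler of microvilli, and Tuba4a (-1.45 ± 0.34). Vil1 missed the threshold on the mean of probe sets, without AAF/PH animal 2 and without normal animal 1 or 3.
Junction genes were divided. Of 22 claudins and junction genes 4 were called higher (background 7.54%) and 7 lower (background 12.5%). Of the 22, 20 remained with low-level genes removed, and the lower count was near the 28.7% among the brightest genes. The gap junction genes went opposite ways: Gja1, the connexin of non-parenchymal cells and ducts, was 46.9, 38.1 and 50.1 in normal and 134, 139.8 and 192 in AAF/PH liver (1.78 ± 0.23), while Gjb1, the main connexin of hepatocytes, was 996, 918 and 916 against 233, 221 and 214 (-2.08 ± 0.21) and Gjb2 fell (-2.11 ± 0.35). Among the claudins, Cldn6, of fetal epithelia, rose by 1.57 ± 0.24 and Cldn4, of ducts, by 1.13 ± 0.20, whereas Cldn2 and Cldn3, both made by hepatocytes, fell (-1.09 ± 0.24 and -1.03 ± 0.25). Cdh1, the adhesion protein shared by hepatocytes and ducts, was not called (-0.10 ± 0.33, adjusted p = 0.828). The lower count became 12 with only the 6 arrays fitted or without the rapamycin foci and 13 with array weights. Cldn3 lost the call without AAF/PH animal 2 and without normal animal 3.

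**Figure D2:**
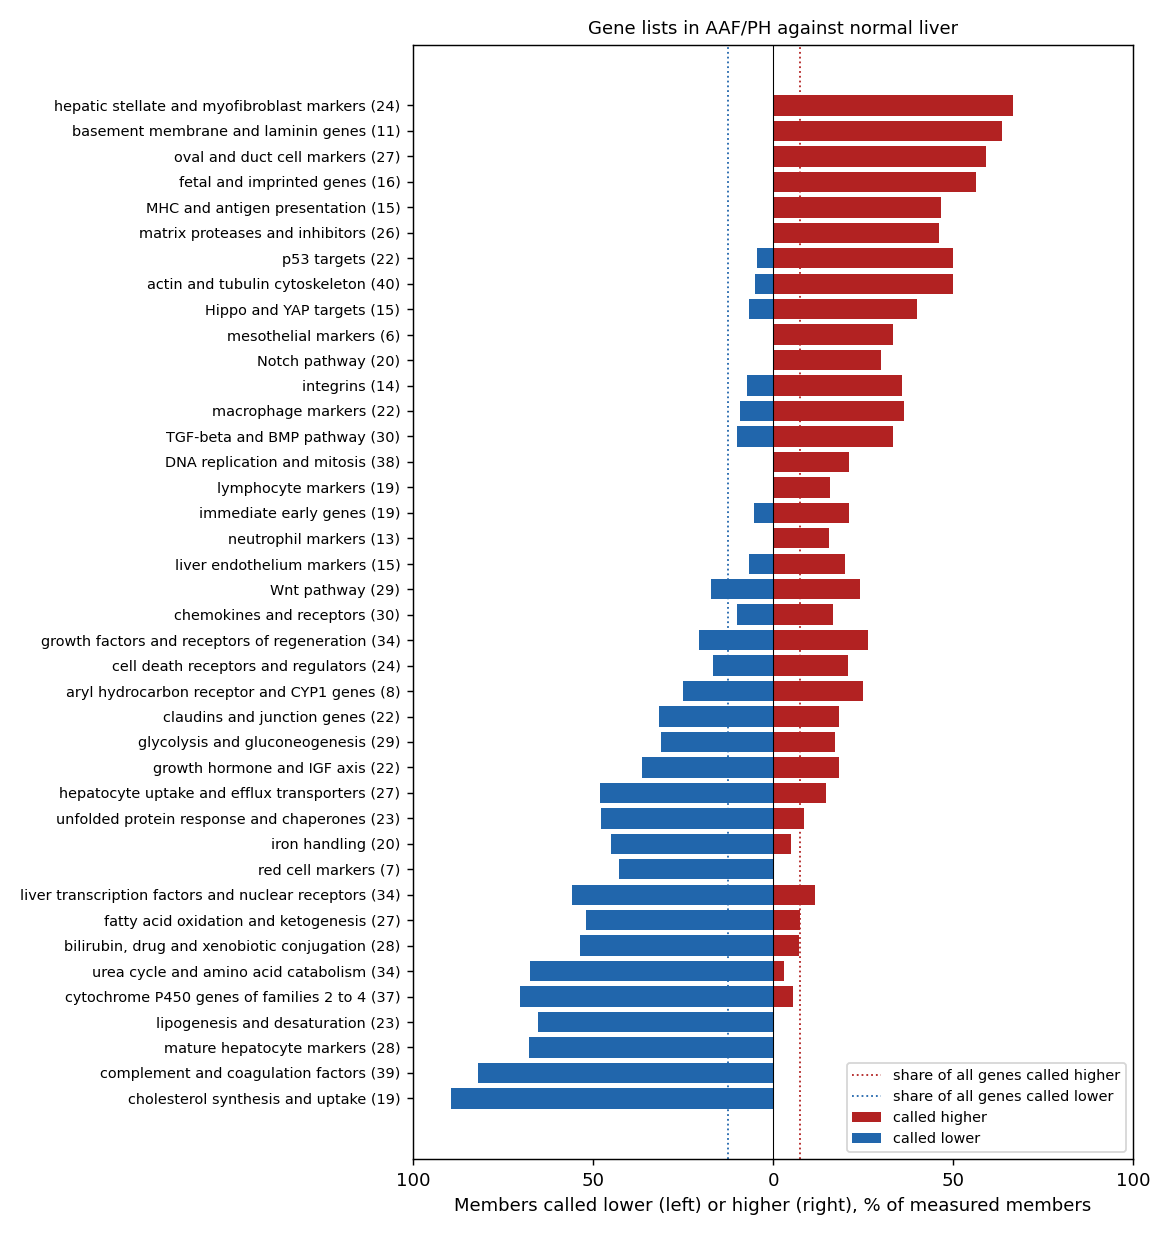
Share of the measured members of each of 40 gene lists that was called lower (left, blue) or higher (right, red) in AAF/PH against normal liver, in percent, with dotted lines at the shares of all genes tested. Oval and duct, stellate and matrix lists lie to the right, and cholesterol, complement, P450 and lipogenesis lists lie to the left.

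Most listed genes of antigen display by MHC class II, the route by which antigen-presenting cells show peptides to helper T cells, rose. Of 15 genes of MHC and antigen presentation 7 were called higher and none lower (median 0.73). The chains RT1-Bb (39.3, 42.2 and 43.8 in normal, 216, 214 and 210.4 in AAF/PH animals) and RT1-Ba (33.96, 51.5 and 43.1 against 222, 219 and 191) rose by 2.35 ± 0.30 and 2.32 ± 0.29. The second pair, RT1-Da and RT1-Db1, rose by 2.24 ± 0.39 and 1.49 ± 0.24. Cd74, the invariant chain that guards the peptide groove, was the brightest, at 164, 265 and 273 in normal and 1104, 990.2 and 1144 in AAF/PH liver (2.24 ± 0.42). In each of these 5 genes the groups were far apart and the AAF/PH animals close to each other. RT1-DMa, which loads peptides, rose by 1.52 ± 0.29, and Ciita, the master activator of class II genes, by 0.85 ± 0.23. The 7 were all of the class II route. RT1-DMb, the partner of RT1-DMa (0.73 ± 0.36), and Ctss, a protease that trims the invariant chain (0.55 ± 0.29), belong to that route too and were not called. B2m, the light chain of class I, was 3953, 4348 and 3663 in normal and 3488, 2612 and 3118 in AAF/PH liver (-0.38 ± 0.20, adjusted p = 0.192), and Tap1 (0.26 ± 0.32) and Psmb8 (-0.34 ± 0.28) were not called. Ciita was no longer called after median centring, after quantile normalization, without AAF/PH animal 1 or 2 and without normal animal 1.
The promoters of the 4 class II chains are shown because they moved together and share a CCAAT box (ATTGG, or CCAAT where it is read on the opposite strand), which lies within the Y box of class II promoters. Each line holds 100 bases before the start used by the RefSeq promoter table (GRCr8), sense strand, with the match in capitals. The outermost start of the gene annotation is the same for RT1-Ba and RT1-Bb, and lies 22 bases further out for RT1-Da and 20 for RT1-Db1, so that the last bases of those lines lie inside the annotated gene. The stretches are chr20:4515315-4515414 (plus strand) for RT1-Da, chr20:4560163-4560262 (minus) for RT1-Db1, chr20:4576957-4577056 (plus) for RT1-Ba and chr20:4604119-4604218 (minus) for RT1-Bb.
RT1-Da: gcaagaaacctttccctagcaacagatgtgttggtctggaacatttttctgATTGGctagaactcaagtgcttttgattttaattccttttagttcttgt
RT1-Db1: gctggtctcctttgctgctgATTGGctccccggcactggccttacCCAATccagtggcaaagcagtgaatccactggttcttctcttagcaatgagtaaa
RT1-Ba: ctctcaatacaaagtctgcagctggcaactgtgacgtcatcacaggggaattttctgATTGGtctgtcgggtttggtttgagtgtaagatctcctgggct
RT1-Bb: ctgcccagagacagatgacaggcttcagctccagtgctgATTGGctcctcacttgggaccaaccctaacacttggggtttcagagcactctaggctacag
The ATTGG letters began 49, 43 and 61 bases before the table's start in RT1-Da, RT1-Ba and RT1-Bb, and 80 bases before it in RT1-Db1, which holds a second match on the opposite strand. These 5 letters are common: 38.2% of all promoter windows held them, 35.4% of those of genes called higher and 43.2% of those of genes called lower.
Markers of the cells that carry class II changed in part. Of 22 macrophage markers 8 were called higher and 2 lower, and their summed intensity was 1915.7 to 2367.8 in normal and 2422.1 to 2669.5 in AAF/PH liver. Adgre1, the F4/80 antigen, rose by 0.72 ± 0.19 and Cx3cr1, the fractalkine receptor, by 0.86 ± 0.22. Cd68, a general macrophage marker, was not called (0.31 ± 0.35, adjusted p = 0.534). The 2 that fell were Cd14, the endotoxin co-receptor, at 360.0, 249 and 339 against 77.5, 73.1 and 40.8 (-2.35 ± 0.41), and Vsig4 (-1.19 ± 0.34), a complement receptor of resident Kupffer cells. Other Kupffer cell markers, Clec4f (-0.60 ± 0.25) and Marco (0.17 ± 0.23), were not called. Of 19 lymphocyte markers 3 were called higher and none lower, with summed intensities of 384.8 to 460.2 and 575.6 to 635.9, and Cd4 rose by 0.69 ± 0.18. Neither the B cell marker Ms4a1 (0.50) nor Cd79b (0.30) was called. The part of these cells in the class II rise was not tested. The macrophage count became 1 without normal animal 1, 2 after median centring, 4 without AAF/PH animal 1 or 2, 5 with low-level genes removed or without AAF/PH animal 3 or without normal animal 3 and 13 with array weights. The lymphocyte count became 0 after median centring or without normal animal 1, 1 without AAF/PH animal 1 or without normal animal 3, 8 without the rapamycin foci, 9 with only the 6 arrays fitted and 15 with array weights. Adgre1 and Cd4 did not pass the threshold after median centring, without AAF/PH animal 1 and without normal animal 1. Cx3cr1 missed the threshold without AAF/PH animal 1 and without normal animal 1. Vsig4 lost the call after quantile normalization, without AAF/PH animal 2 and without normal animal 1, 2 or 3.
Markers of other cells formed short lists, read against backgrounds of 7.54% called higher and 12.5% called lower. Of 13 neutrophil markers 2 were called higher (15.4%), led by Ncf1, an oxidase subunit, at 1.22 ± 0.19. Of 15 markers of liver endothelium 3 were called higher and 1 lower (median -0.06, which became 0.15 after quantile normalization). Plvap, of vessels with diaphragms, rose by 1.02 ± 0.21, while Kdr, the main receptor for VEGF, was 124, 113 and 122 in normal and 47.9, 41.3 and 61.6 in AAF/PH liver (-1.27 ± 0.23). Pecam1, a marker of all endothelium, was not called (-0.06 ± 0.24, adjusted p = 0.87). Red cell genes fell in 3 of 7 (42.9%), with Hbb-b1, a beta-globin, at 428, 494 and 409.7 against 61.6, 122 and 122 (-2.19 ± 0.24). The neutrophil count became 1 with low-level genes removed, where 1 marker was tested. It became 1 after median centring or quantile normalization, without AAF/PH animal 1 and without normal animal 1 or 3. With only the 6 arrays fitted or without AAF/PH animal 3 it was 4. The neutrophil count was 5 without the rapamycin foci and 9 with array weights. The count of endothelial markers called higher became 1 after median centring or without AAF/PH animal 2 or without normal animal 1 or 3 and 5 with array weights.
Signals that act on ducts and stellate cells came next. Of 30 genes of the TGF-beta and BMP pathway 10 were called higher and 3 lower. Among the activin subunits, 2 of the 3 listed fell, Inhba from 221, 123 and 180.2 to 30.98, 25.3 and 23.4 (-2.69 ± 0.21) and Inhbe, made chiefly by hepatocytes (-2.97 ± 0.21), while Inhbb rose by 0.63 ± 0.17. Fst, which binds and blocks activin, was 12.98, 16.8 and 11.9 in normal and 44.2, 127 and 46.1 in AAF/PH animals (2.21 ± 0.32, adjusted p = 2.23e-04). The groups did not overlap for Inhba, Inhbe and Fst. Ltbp1, which stores TGF-beta in the matrix, rose by 1.21 ± 0.22, and Tgfb1 itself by 0.89 ± 0.27. The targets Ccn2, a matrix signalling protein, and Id1, a BMP target, rose by 1.61 ± 0.22 and 1.06 ± 0.18, while Smad3 (0.24) and Smad4 (-0.36), the signal carriers, were not called. The higher count became 4 after median centring, 5 without normal animal 1 or 3 and 6 without AAF/PH animal 3. The lower count of the TGF-beta and BMP pathway became 5 with array weights. Inhbb was no longer called after median centring, without AAF/PH animal 2 and without normal animal 1 or 3. Tgfb1 did not pass the threshold in 7 of 17 alternatives. These included median centring and leaving out AAF/PH animal 2 or 3 or any normal animal.
Of 15 Hippo and YAP genes 6 were called higher and 1 lower. Ccn1, a YAP target of the same family as Ccn2, rose by 1.19 ± 0.26, and Tead2, a DNA-binding partner of YAP, by 0.81 ± 0.20, while Yap1 itself was not called (-0.14 ± 0.29). The higher count became 2 without normal animal 1 and 3 after median centring or without AAF/PH animal 1. Of 20 Notch genes, which direct duct fate, 6 were called higher and none lower. The ligand Jag1 was 28.4, 34.6 and 36.1 in normal and 50.99, 54.2 and 57.2 in AAF/PH animals (0.72 ± 0.17), the receptor Notch3 rose by 0.86 ± 0.19 and the target Heyl by 1.02 ± 0.17. Notch2 (-0.61 ± 0.24), the receptor most tied to bile duct formation, and the target Hes1 (-0.02 ± 0.25) were not called. The Notch count became 2 without normal animal 1 and 3 after median centring or without AAF/PH animal 2 or 3 or without normal animal 3. Tead2 missed the threshold without AAF/PH animal 2 and without normal animal 1. Jag1 lost the call without normal animal 1.
Of 29 Wnt genes 7 were called higher and 5 lower, and receptors made up all those that fell. Lgr4, the R-spondin receptor of hepatocytes, was 144, 89.5 and 91.97 in normal and 25.7, 30.6 and 35.5 in AAF/PH animals (-1.80 ± 0.25), and the co-receptors Lrp5 and Lrp6 fell (-1.52 ± 0.20 and -1.44 ± 0.28). Fzd8 and Fzd4 fell (-1.53 ± 0.23 and -1.29 ± 0.22), but Fzd2, another receptor of the same family, rose from 19.3, 27.03 and 20.1 to 50.96, 58.7 and 56.8 (1.34 ± 0.20). Sfrp1, a secreted inhibitor, rose by 1.19 ± 0.22. Ctnnb1, the central effector, and its target Axin2 were not called (-0.04 ± 0.31 and 0.20 ± 0.22). The higher count became 2 with low-level genes removed or without normal animal 1, 3 after median centring or after quantile normalization or without AAF/PH animal 2 or without normal animal 3, 13 with only the 6 arrays fitted or without the rapamycin foci and 16 with array weights.
Growth factor receptors were divided too, with 9 called higher and 7 lower of 34 growth factors and receptors. The receptors by which hepatocytes receive the mitogens of regrowth fell: Met, the HGF receptor, from 185, 128 and 169.6 to 47.2, 34.2 and 69.1 (-1.72 ± 0.33), Egfr from 375, 441 and 532 to 186, 176 and 224 (-1.19 ± 0.31) and also Erbb3 (-1.09 ± 0.30). Receptors that rose were Fgfr1 and Fgfr3 (0.89 ± 0.19 and 0.91 ± 0.21), Erbb2 (0.76 ± 0.19) and Osmr (1.40 ± 0.32), the oncostatin M receptor. Of the ligands, Hgf was 47.3, 37.2 and 45.2 in normal and 60.9, 53.6 and 48.3 in AAF/PH liver and was not called (0.33 ± 0.21, adjusted p = 0.277). Il6 (0.32), Tgfa (0.26) and the TWEAK gene Tnfsf12 (0.40) were not called, while Lif, of the Il6 family, rose by 0.90 ± 0.26 and Vegfa fell (-1.10 ± 0.30). The higher count became 4 of 18 tested with low-level genes removed, 5 without normal animal 1 and 18 with array weights. The lower count became 1 without AAF/PH animal 2, 2 without normal animal 1 or 3 and 4 without AAF/PH animal 1. Egfr was no longer called without AAF/PH animal 2 and without normal animal 3. Erbb3 and Vegfa did not pass the threshold without AAF/PH animal 1 or 2 and without normal animal 1 or 3. Erbb2 missed the threshold without AAF/PH animal 3 and without normal animal 1. Lif lost the call after median centring, after quantile normalization, without AAF/PH animal 1 or 3 and without normal animal 1 or 3.
In the chemokine list 5 genes were called higher and 3 lower of 30. Cxcl12, which holds CXCR4-bearing cells in tissue, was 308, 330.2 and 389.6 in normal and 127, 146 and 153 in AAF/PH animals (-1.27 ± 0.22), and its receptor Cxcr4 was 19.4, 20.1 and 16.7 against 36.2, 62.8 and 49.02 (1.36 ± 0.22). Ligand and receptor thus moved in opposite directions. The membrane-bound chemokines Cxcl16 and Cx3cl1 rose by 1.40 ± 0.31 and 1.04 ± 0.22. Cxcl9, an interferon-induced chemokine, was 132, 123 and 95.03 in normal and 434, 35.6 and 259 in AAF/PH animals, so that animal 2 lay below and the other AAF/PH animals above normal liver, and it was not called (0.46 ± 0.84). Of 19 immediate early genes 4 rose and 1 fell: Fosl2 and Junb rose by 0.84 ± 0.18 and 0.79 ± 0.19, Ier2 fell (-1.26 ± 0.28), and Fos (0.18), Jun (0.14) and Myc (-0.04) were not called. The higher count of chemokines became 3 after median centring, 12 without the rapamycin foci, 13 with only the 6 arrays fitted and 14 with array weights. The count of immediate early genes called higher became 1 after median centring, 2 without AAF/PH animal 2 or 3 or without normal animal 1 or 2, 7 with only the 6 arrays fitted or without the rapamycin foci and 8 with array weights. Junb was no longer called after median centring, without AAF/PH animal 3 and without normal animal 1.
Targets of p53, the factor that answers DNA damage, gave 11 called higher and 1 lower of 22 (median 0.65). Cdkn1a, the p21 inhibitor of the cell cycle, was 124, 132 and 159.8 in normal and 852, 605 and 786 in AAF/PH animals, a difference of 2.43 ± 0.33 (SE, adjusted p = 1.59e-04). Mdm2, which degrades p53, was 45.5, 39.4 and 51.03 against 231, 121 and 237 (2.06 ± 0.27), and Tnfrsf10b, a death receptor, 22.6, 17.9 and 23.8 against 75.9, 71.1 and 121 (2.03 ± 0.23). No AAF/PH animal overlapped normal liver for these 3 genes, and animal 2 was the lowest of the group each time. Aen, a nuclease of apoptosis, and Phlda3, an inhibitor of Akt, rose by 1.38 ± 0.19 and 1.37 ± 0.25, and Bax, the mitochondrial pore protein, by 0.88 ± 0.18. Xpc, of nucleotide excision repair, fell (-0.86 ± 0.23), and Gadd45a (-0.39 ± 0.26) and Gdf15 (0.71 ± 0.32) were not called. In a list of 24 cell death genes 5 were called higher and 4 lower. Bak1, a partner of Bax, rose by 1.15 ± 0.20, and Birc2, an inhibitor of apoptosis, fell (-1.30 ± 0.23). The count of cell death genes called higher became 3 after median centring or without AAF/PH animal 1 or 3 or without normal animal 1 or 3 and 9 with array weights. The count of cell death genes called lower became 2 without AAF/PH animal 2 or without normal animal 1 or 3 and 7 with only the 6 arrays fitted or with array weights. Xpc did not pass the threshold without AAF/PH animal 2 and without normal animal 1 or 3.
Division genes changed in part. Of 38 genes of DNA replication and mitosis 8 were called higher and none lower. Tyms, which makes thymidylate, was 41.2, 32.1 and 41.97 in normal and 146, 114 and 183 in AAF/PH animals (1.93 ± 0.26), and Ccnd1, the cyclin of entry into the cycle, 112, 162 and 106 against 568, 204 and 475 (1.61 ± 0.37), with animal 2 again the lowest. The replication helicase subunits Mcm2 and Mcm6 rose by 0.93 ± 0.18 and 0.85 ± 0.21. Among mitotic genes Aurkb and Top2a were called higher. Aurkb differed by 0.38 to 0.68 across the alternatives and lost the call in 3 of 17. Top2a differed by 0.3 to 0.71 and lost the call in 9 of 16. The mitotic genes Cdk1, Ccnb1 and Ccna2 were not called. Cdk1 differed by 0.55 ± 0.24, Ccnb1 by 0.52 ± 0.25 and Ccna2 by 0.10 ± 0.21. Pcna, the replication clamp, was 103, 58.5 and 83.5 against 73.3, 76.6 and 69.8 (difference -0.12 ± 0.32, adjusted p = 0.804). The count became 4 of 18 tested with low-level genes removed, 4 without normal animal 1 and 5 after median centring. It became 14 without the rapamycin foci, 17 with only the 6 arrays fitted and 25 with array weights.
A drug exporter had the largest rise of the 14497 genes. Abcb1b, a P-glycoprotein pump that carries drugs out of cells, was 38.2, 40.8 and 55.1 in normal and 1184, 1104 and 1280.2 in AAF/PH animals, a difference of 4.75 ± 0.34 (SE, adjusted p = 5.08e-07). Its close relative Abcb1a was 39.9, 27.4 and 32.1 against 75.7, 40.1 and 67.3 and was not called (0.85 ± 0.30, adjusted p = 0.0622). Near-identical stretches of the pair could share probes, which the files do not let one check. Of 27 uptake and efflux transporters 4 were called higher and 13 lower. Abcc3, a basolateral exporter, rose by 1.37 ± 0.31, while some canalicular pumps fell, the bile salt pump Abcb11 from 558, 514 and 586 to 132, 112 and 164 (-2.04 ± 0.31) and also Abcc2 and Abcb4 (-1.43 ± 0.33 and -1.55 ± 0.33). Others, Abcg2 (0.19 ± 0.20) and Abcg8 (-0.11 ± 0.23), were not called, and Abcb1b itself is a canalicular pump. Uptake carriers fell as well, Slco2a1 from 1025, 913 and 926 to 40.4, 76.04 and 30.6 (-4.39 ± 0.36) and also Slco1a4 (-3.65 ± 0.27). Abcc3, which exports to blood, and these 2 carriers, which take up from blood, moved in opposite directions.

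**Figure D3:**
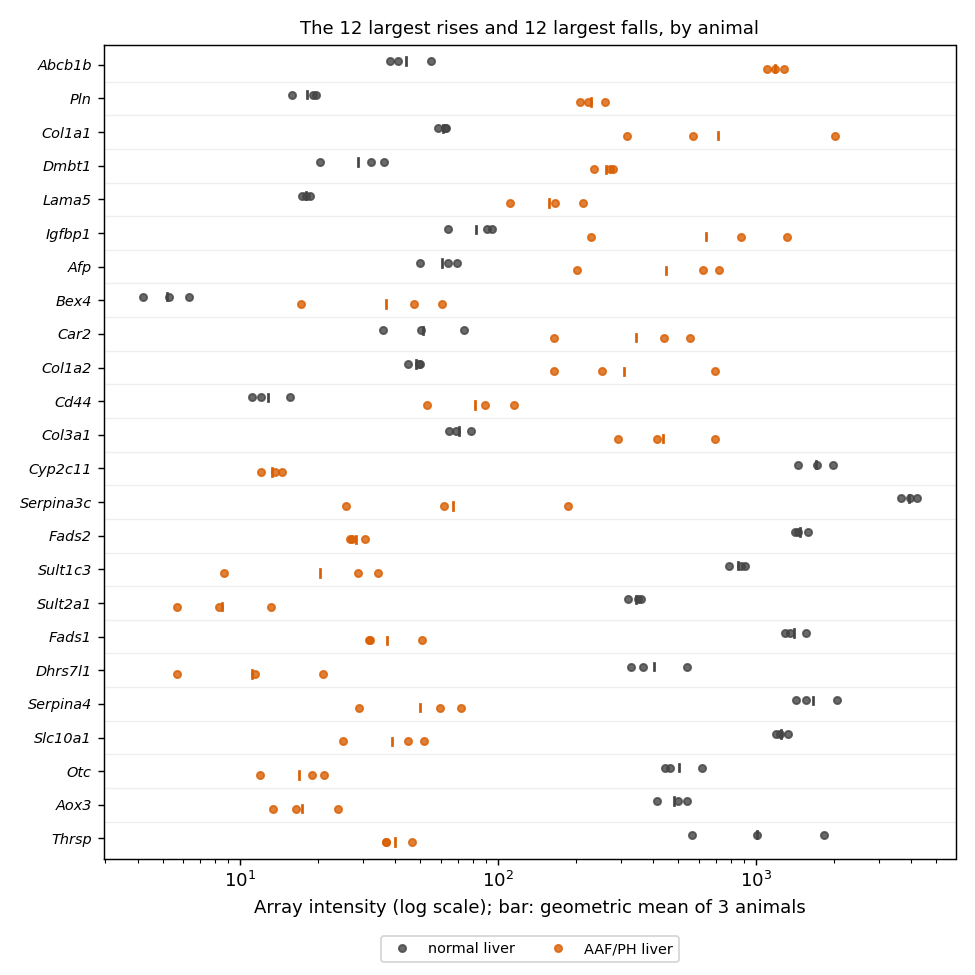
Intensity (log axis) of the 12 genes with the largest rises and the 12 with the largest falls in each of 3 normal and 3 AAF/PH animals (points), with bars at the geometric mean. Abcb1b rises from 38.2 to 55.1 in normal animals to at least 1104 in AAF/PH animals, and Cyp2c11 falls from at least 1455 to 14.5 or less.

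Of 37 P450 genes of families 2 to 4, which oxidise drugs, steroids and fatty acids, 26 were called lower and 2 higher. The background of lower calls was 12.5%, and 28.7% among the brightest genes. Cyp2c11, the main male-specific P450, showed the largest fall of the 14497 genes, from 1729, 1999 and 1455 in normal to 14.5, 13.6 and 12.03 in AAF/PH animals (-7.00 ± 0.43, adjusted p = 3.30e-07). Other genes that are higher in male rat liver fell too: Cyp2a2 from 751, 661 and 638 to 41.5, 29.3 and 35.3 (-4.28 ± 0.30), and also Cyp2c13 (-3.25 ± 0.37) and Cyp3a2 (-3.60 ± 0.52). Cyp2c12, the female-specific member of the same family, was 83.6, 106 and 89.97 in normal and 361, 428 and 188 in AAF/PH animals and rose by 1.73 ± 0.51 (adjusted p = 0.0273). Genes that are higher in female rat liver did not share 1 direction, since Cyp3a9 and Cyp2a1 fell (-3.02 ± 0.26 and -0.92 ± 0.29). Cyp4a1, a fatty acid hydroxylase induced through PPAR-alpha, rose by 0.78 ± 0.22. Cyp2e1, the ethanol-inducible form, was 2619, 2447 and 2003 against 1961, 1824 and 1639 and was not called (-0.38 ± 0.25, adjusted p = 0.282), and neither was Cyp4a3 (-0.31 ± 0.22). Cyp2c12 missed the threshold after median centring, on log2(value + 16), without AAF/PH animal 1 or 2 and without normal animal 1 or 3. Cyp2a1 lost the call in 10 of 17 alternatives. These included quantile normalization, log2(value + 16), all probe sets and a trended, robust variance prior. Its call was also lost without AAF/PH animal 1, 2 or 3 and without normal animal 1 or 3. Cyp4a1 was no longer called after median centring, with a trended, robust variance prior, without AAF/PH animal 3 and without normal animal 1 or 3.
The promoter of Cyp2c11 is shown because its level fell furthest. The line holds 150 bases before the start of RefSeq's annotation for GRCr8, sense strand, with a TATA box (TATAAA) in capitals, at chr1:246175066-246175215 on the plus strand.
Cyp2c11: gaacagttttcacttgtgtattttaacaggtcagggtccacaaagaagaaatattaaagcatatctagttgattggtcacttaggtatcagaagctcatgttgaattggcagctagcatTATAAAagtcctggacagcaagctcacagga
The box lies 31 to 26 bases before the start. Both strands counted, 11.6% of all windows held TATAAA and 8.7% of those of genes called lower. The share was 9.3% for genes called at least 2-fold lower and 18.3% of the 71 windows of genes called at least 8-fold lower. Those 71 windows were poorer in G and C, at 52.8%, than all windows (57.1%) and those of genes called lower (59.0%). What part this had in the share was not tested.
The growth hormone axis, whose pulses set the male pattern of liver P450 genes, was read beside them. Of 22 genes 4 were called higher and 8 lower. Ghr, the receptor, was 687, 648 and 619 in normal and 125, 87.2 and 77.8 in AAF/PH animals (-2.78 ± 0.30), and the hepatic carriers of its signal fell, Igfals from 543, 422 and 574 to 45.8, 27.97 and 23.8 (-4.02 ± 0.26) and Igf1 from 1896, 1852 and 1858 to 842, 629.9 and 552 (-1.49 ± 0.26). The feedback genes Socs2 and Cish fell (-2.53 ± 0.29 and -2.57 ± 0.40), as did Stat5b, the factor that Ghr activates (-1.06 ± 0.24). Stat5a (-0.07 ± 0.16) and Jak2 (-0.11 ± 0.21) were not called. Of the binding proteins, Igfbp1 and Igfbp5 rose (2.97 ± 0.50 and 1.03 ± 0.20), and Igfbp2 (0.18) and Igfbp3 (-0.71) were not called. The higher count became 2 after median centring or over all probe sets or without AAF/PH animal 2 or without normal animal 1 or 3, 7 with only the 6 arrays fitted and 8 with array weights.
Conjugation enzymes, which tag drugs and carcinogens for export, gave 15 called lower and 2 higher of 28. Of the sulfotransferases, a family that activates N-hydroxy-AAF, Sult1c3 went from 875, 908 and 788 to 28.7, 34.2 and 8.67 (-5.39 ± 0.46) and Sult2a1 from 358, 319 and 349.8 to 5.67, 13.2 and 8.28 (-5.32 ± 0.48), while Sult1a1 fell less (-1.35 ± 0.30) and Sult1b1 was not called (-0.81 ± 0.37). Some glutathione transferases also fell, among them Gstm7 (-2.98 ± 0.34) and Gsta4 (-2.73 ± 0.50). Gsta3, a glutathione transferase, rose from 15.98, 14.3 and 14.3 to 68.9, 60.6 and 53.8 (2.03 ± 0.36), and Ephx1, which hydrolyses epoxides, was 706, 676 and 688 against 1551, 1485 and 1619 (1.17 ± 0.32). Gstm1, one of the brightest members, was not called (-0.07 ± 0.19, adjusted p = 0.793). Of 8 genes of the aryl hydrocarbon receptor group 2 were called in each direction: Cyp1b1, of non-parenchymal cells, rose from 6.72, 11.1 and 11.2 to 23.5, 44.6 and 33.3 (1.79 ± 0.27), and Cyp1a2, the hepatocyte form that hydroxylates AAF, fell from 394, 524 and 493 to 189.7, 223 and 119 (-1.45 ± 0.24). Cyp1a1, the classic inducible target, was not called (0.29 ± 0.17), nor was Nqo1 (-0.14 ± 0.45, adjusted p = 0.827). The higher count of the aryl hydrocarbon receptor group became 0 with low-level genes removed, where 4 of the 8 genes were tested. Cyp1b1 was not among those and kept its call under every alternative in which it was tested. The higher count became 1 after median centring or quantile normalization, on log2(value + 16) and over all probe sets. It was also 1 without AAF/PH animal 1, 2 or 3 and without normal animal 1 or 3. Ephx1 did not pass the threshold after median centring, without AAF/PH animal 1, 2 or 3 and without normal animal 1 or 3.
Hepatocyte pathways fell unevenly, with members of 1 pathway far apart. The urea cycle turns ammonia into urea in 5 enzyme steps. Otc, the second step, went from 616, 445 and 465 in normal to 18.9, 21.2 and 11.9 in AAF/PH animals (-4.90 ± 0.42, adjusted p = 2.72e-06). Cps1, the step before it in the same mitochondrion, was 2382, 1618 and 2182 against 2308, 2006 and 2164 (difference 0.08 ± 0.30, adjusted p = 0.848). The groups did not overlap for Otc and overlapped fully for Cps1. Nags, which makes the activator of Cps1, fell (-1.47 ± 0.21), Ass1 (-0.50 ± 0.31) and Arg1 (0.14 ± 0.34) were not called, and Asl rose by 0.86 ± 0.27. Across urea cycle and amino acid breakdown 23 genes were called lower and 1 higher of 34. Kynu and Kmo, of tryptophan breakdown, fell (-4.00 ± 0.37 and -2.89 ± 0.40), as did Prodh, of proline breakdown (-2.88 ± 0.25). Asl missed the threshold in 10 of 17 alternatives. These included median centring, all probe sets, a trended, robust variance prior and leaving out any single animal of either group.
Complement and coagulation factors, secreted by hepatocytes, gave 32 called lower and none higher of 39 (median -1.41). C8g, a chain of the membrane attack complex, fell from 1211, 961 and 972 to 173, 89.7 and 98.7 (-3.18 ± 0.34), Klkb1, which encodes prekallikrein, from 240.0, 245 and 251 to 36.1, 31.7 and 24.04 (-3.02 ± 0.27), and F2, the prothrombin gene, fell too (-1.47 ± 0.24). Fibrinogen is the clot protein. Of its 3 chains Fgg was called (-0.61 ± 0.20), with Fga at -0.48 ± 0.20 (adjusted p = 0.108) and Fgb at -0.16 ± 0.18 (adjusted p = 0.533). Kng1, from which prekallikrein's product releases bradykinin, was 1939, 1655 and 1613 in normal and 1876, 2522 and 1953 in AAF/PH animals (0.28 ± 0.24, adjusted p = 0.41). Across the 17 alternatives its difference ran from -0.72 to 0.54, without a call, so its direction depended on the processing. C3, the centre of the complement cascade, fell (-0.78 ± 0.19), and C9 was not called (-0.57 ± 0.27). Fgg lost the call in 9 of 17 alternatives. These included all probe sets, a trended, robust variance prior and leaving out any single animal of either group. C3 was no longer called with a trended, robust variance prior.

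**Figure D4:**
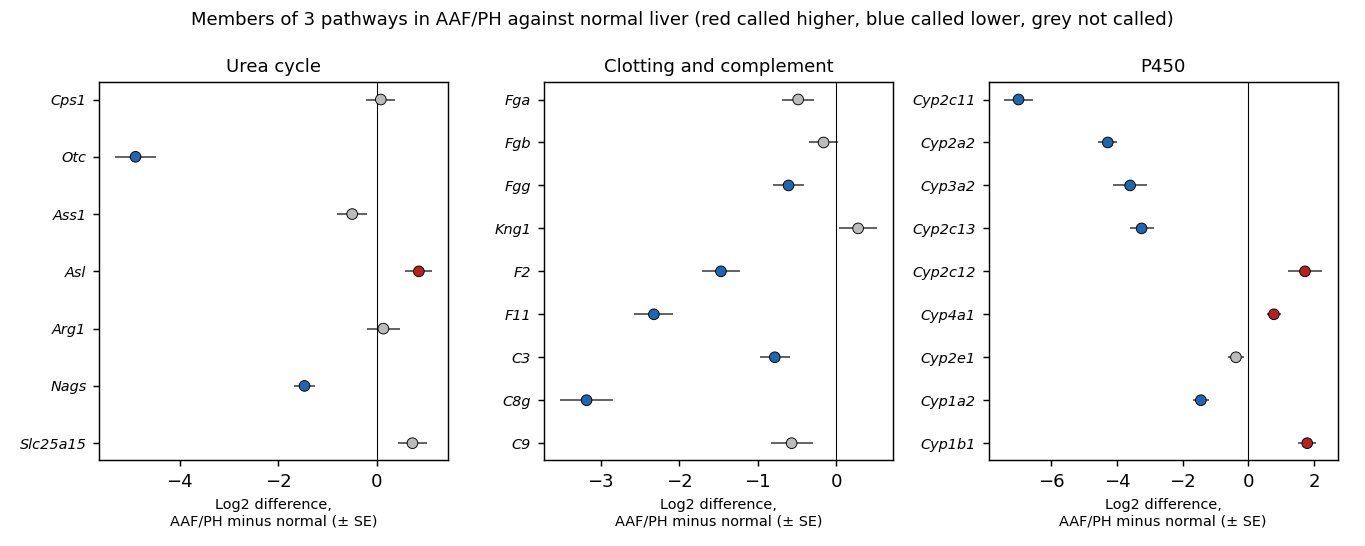
Log2 difference, AAF/PH minus normal liver, with its SE (bars), of members of the urea cycle, of clotting and complement and of P450 enzymes (n = 3 animals a group), with called rises in red, called falls in blue and genes not called in grey. Otc stands at -4.90 beside Cps1 at 0.08, F11 at -2.32 beside Kng1 at 0.28, and Cyp2c11 at -7.00 beside Cyp2c12 at 1.73. Kng1 ran from -0.72 to 0.54 across the alternatives.

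Of 34 liver transcription factors and nuclear receptors 19 were called lower and 4 higher. Hnf4a, the central hepatocyte regulator, was 554, 489 and 608 in normal and 286, 189 and 209 in AAF/PH animals (-1.29 ± 0.25), and Cebpa, which holds hepatocytes at rest, 314, 216 and 324 against 119.7, 113 and 90.8 (-1.39 ± 0.20). For both, all 3 AAF/PH animals lay below all normal animals. Nr1h4, the bile acid receptor FXR, fell (-1.92 ± 0.29), as did Ppara, the fatty acid receptor (-1.63 ± 0.26), and Foxa1 (-1.82 ± 0.19). Cebpb (-0.20 ± 0.26) was not called. The 4 that rose were Sox4, of early duct development, from 30.6, 28.2 and 29.2 to 72.1, 74.7 and 114 (1.54 ± 0.25), Ehf, of epithelia, by 1.43 ± 0.26, the acute-phase factor Cebpd by 0.94 ± 0.19, and Elf3 by 0.54 ± 0.18. The count of factors called higher became 2 of 31 tested with low-level genes removed. Elf3 did not pass the threshold in 11 of 16 alternatives. These included median centring, quantile normalization, log2(value + 16), all probe sets and leaving out any single animal of either group.
Lipid synthesis fell widely. In the cholesterol pathway 17 of 19 genes were called lower and none higher (median -1.92). Sc5d and Ebp, late steps of sterol synthesis, went from 908, 1018 and 920.0 to 114, 124 and 99.5 (-3.08 ± 0.38) and from 390.4, 361 and 379 to 58.6, 55.3 and 45.5 (-2.83 ± 0.33). Srebf2, the factor that drives the pathway, fell (-1.38 ± 0.27), as did Insig1, its feedback anchor (-2.12 ± 0.46). Lipogenesis gave 15 lower and none higher of 23. Of the desaturases, Fads2 fell from 1452, 1597 and 1418 to 30.6, 27.1 and 26.7 (-5.73 ± 0.41), as did Fads1 (-5.24 ± 0.38) and Scd (-4.58 ± 0.44), while Fads3 was not called (0.32 ± 0.17). Fasn, fatty acid synthase, was 1196, 264 and 473 in normal animals, a wide range, and 49.5, 41.6 and 45.1 in AAF/PH animals (-3.55 ± 0.50). Lpin1, of phosphatidate breakdown, was 173, 109 and 132 against 184, 284 and 526 and was not called (1.16 ± 0.50).
Fatty acid oxidation gave 14 called lower and 2 higher of 27. Ehhadh, of peroxisomal oxidation, and Acsl1, which activates fatty acids, fell (-3.38 ± 0.32 and -3.10 ± 0.22). Cpt1a, the gate to the mitochondrion, was not called (-0.41 ± 0.28), and neither was Pdk4 (-0.36 ± 0.34). Eci1 and Cyp4a1 were the 2 that rose (0.65 ± 0.20 and 0.78 ± 0.22). Of 29 genes of glycolysis and glucose synthesis 5 were called higher and 9 lower. The liver forms of several enzymes fell, Pklr from 779, 309 and 418 to 49.4, 44.5 and 43.7 (-3.35 ± 0.30), and also Pfkfb1 (-3.23 ± 0.33) and Fbp1 (-2.26 ± 0.28). Ldha, a lactate dehydrogenase subunit, fell too (-1.64 ± 0.39). Ldhb, another subunit, was called higher, differed by 0.45 to 1.1 across the alternatives and lost the call in 9 of 16. Hk1, Pfkp and Aldoa, forms found widely outside the liver, rose by 1.03 ± 0.19, 1.19 ± 0.23 and 1.22 ± 0.32, while Pkm (0.77 ± 0.30), Hk2 (0.69 ± 0.32) and Pfkm (0.40 ± 0.17) were not called. Gapdh was not called (0.05 ± 0.26). The higher count of glycolysis genes became 3 after median centring or with low-level genes removed or without AAF/PH animal 2 or without normal animal 1 and 8 with array weights. Eci1 missed the threshold in 8 of 17 alternatives. These included median centring, a trended, robust variance prior and leaving out AAF/PH animal 1 or 3 or any normal animal. Cyp4a1 lost the call after median centring, with a trended, robust variance prior, without AAF/PH animal 3 and without normal animal 1 or 3. Aldoa was no longer called after median centring, without AAF/PH animal 2 or 3 and without normal animal 1.
Of 23 genes of the unfolded protein response and chaperones 11 were called lower and 2 higher. Pdia4 and Herpud1, which fold and clear proteins of the endoplasmic reticulum, fell (-1.65 ± 0.29 and -1.45 ± 0.28), while Ddit3, the stress factor CHOP, was 90.1, 51.9 and 82.1 in normal and 121, 129 and 150.0 in AAF/PH animals (0.87 ± 0.21). Of 20 genes of iron handling 9 were called lower and 1 higher. Hjv and Tmprss6, which set the iron signal to hepcidin, fell (-1.89 ± 0.31 and -1.79 ± 0.21), and Hamp, the hepcidin gene, was not called (0.34 ± 0.31, adjusted p = 0.444). Lcn2, which withholds iron from microbes and marks injured epithelia, rose from 11.7, 14.5 and 11.7 to 37.3, 54.2 and 57.6 (1.96 ± 0.22). The lower count of chaperones became 6 without AAF/PH animal 2 or without normal animal 3, 7 without normal animal 1 and 17 with array weights. The lower count of iron genes became 5 after quantile normalization and 14 with array weights. Ddit3 did not pass the threshold after median centring.
Several of the largest changes lay outside these groups. Pln, the inhibitor of the calcium pump of heart and smooth muscle, was 19.7, 15.8 and 19.2 in normal and 207, 223 and 259.6 in AAF/PH animals (3.66 ± 0.25, adjusted p = 3.92e-07). Car2, a carbonic anhydrase of duct cells, rose by 2.75 ± 0.54, while Car3, its relative in hepatocytes, fell (-4.13 ± 0.54). A2m, an acute-phase inhibitor of proteases, rose by 2.56 ± 0.61, Alox5, the first enzyme of leukotriene synthesis, by 2.37 ± 0.19, and Pglyrp1, which binds bacterial peptidoglycan, by 2.31 ± 0.22. Npy, a neuropeptide, was 46.8, 58.5 and 50.3 in normal and 103, 176 and 1076 in AAF/PH animals (2.38 ± 0.57), with a wide spread. Serpina3c and Serpina4, protease inhibitors of rodent plasma, fell (-5.88 ± 0.48 and -5.06 ± 0.34). So did Aox3, an aldehyde oxidase (-4.79 ± 0.22), Apof, a lipid transfer inhibitor (-4.48 ± 0.32), and Hsd3b5, a male-predominant steroid enzyme (-3.84 ± 0.34).
Further rises among the 30 largest were those of Col1a2, the second chain of type I collagen (2.68 ± 0.36), Enc1, an actin-binding protein (2.40 ± 0.40), Lgals2, a galectin (2.39 ± 0.24), Pmm1, a phosphomannomutase (2.43 ± 0.23), and Atp6v1d, a subunit of the proton pump of acid vesicles (2.38 ± 0.36). Further falls among the 30 largest included those of the plasma apolipoproteins Apoc1 (-3.92 ± 0.27) and Apoa2 (-3.83 ± 0.43). Thrsp, which responds to thyroid hormone and carbohydrate and promotes lipogenesis, was 1833, 565 and 1006 in normal and 36.8, 46.3 and 36.8 in AAF/PH animals (-4.67 ± 0.54). The peroxisomal oxidases Dao and Hao2 fell (-4.05 ± 0.34 and -3.82 ± 0.35), as did Inmt, a methyltransferase of indole amines (-3.89 ± 0.19). Rnase4, a secreted ribonuclease, fell (-4.03 ± 0.33), as did Stac3, an adaptor known from muscle (-4.67 ± 0.18), Dhrs7l1, of a dehydrogenase family (-5.18 ± 0.44), and Ust5r, of an organic ion transporter family (-3.95 ± 0.27). Mug1l1, named for a murinoglobulin, and Spink1l, named for a protease inhibitor, fell (-3.91 ± 0.25 and -4.16 ± 0.48). All 60 genes named by size in this comparison stayed called in the same direction under every alternative in which they were tested.
AAF/PH animals differed among themselves along gene groups. Of the 16 called stellate markers animal 2 was the highest in 11 and animal 1 the lowest in 10. Among the 12 called p53 targets animal 3 was the highest in 9 and animal 2 the lowest in 10. Of the 32 called complement and coagulation genes animal 1 was the highest in 20 and animal 3 the lowest in 22. Animal 3 was the highest for 10 of the 16 called oval and duct markers. For comparison, among all 1093 genes called higher the highest animal was animal 1 for 22.1%, animal 2 for 38.1% and animal 3 for 39.8%. The lowest animal for these genes was animal 1 for 41.3%, animal 2 for 30.6% and animal 3 for 28.1%. Among all 1807 genes called lower, animal 1 was the highest for 45.5%. The lowest for those was animal 2 for 52.9% and animal 3 for 27.5%. The widest ranges among genes of above-median level were those of Cxcl9 (434, 35.6 and 259), Npy (103, 176 and 1076), Ska2 (8.27, 32.9 and 83.5), Nupr1 (21.2, 176 and 70.3), Serpina3c (187, 25.7 and 61.6) and Car3 (211, 66.9 and 30.9). With 3 animals these orders are descriptions.
The second comparison set AAF/PH liver against placebo foci, which had also met AAF, in a pellet placed on day 14, and partial hepatectomy, on day 21, after diethylnitrosamine. They were taken 49 days after the hepatectomy and were chosen as lesions. It shares its AAF/PH arrays with the first comparison, so only values are set side by side. Of 14497 genes 608 were called (4.19%), 228 higher (1.57%) and 380 lower (2.62%) in AAF/PH liver. At least 2-fold differences were called in 457 genes (3.15%), 140 higher (0.966%) and 317 lower (2.19%). Counts without a single animal were 330 (AAF/PH animal 3), 339 (placebo foci animal 1), 355 (AAF/PH animal 2), 367 (placebo foci animal 3) and 369 (placebo foci animal 2). Normal liver arrays enter these values only through the pooled spread. Gstp1, by which the foci were recognised, is no finding here: it was 3743, 3748 and 4639 in the foci, 183, 152 and 216 in AAF/PH liver and 114, 100.1 and 116 in normal liver, where the difference from AAF/PH liver was not called (0.73 ± 0.27, adjusted p = 0.0718).
Among genes higher in AAF/PH liver than in the foci, Pln (13.6, 24.7 and 15.98 in the foci, difference 3.71 ± 0.25), Afp (47.7, 54.6 and 46.1, 3.19 ± 0.36) and Dmbt1 (32.8, 44.6 and 46.4, 2.68 ± 0.25) overlapped with normal liver in the foci. So did Cdkn1a, at 103, 129.9 and 142 (2.58 ± 0.33, adjusted p = 3.76e-04), and of 22 p53 targets 6 were called higher than in the foci and none lower. Igfbp1 (2.58 ± 0.50), Npy (2.84 ± 0.57) and A2m (2.54 ± 0.61) were also higher. Crot, which moves fatty acids out of peroxisomes, was 32.7, 33.2 and 56.6 in the foci, 416, 299 and 364 in AAF/PH and 324, 298 and 350.2 in normal liver, so that here the foci were the group apart (difference 3.17 ± 0.24, AAF/PH minus foci). Angptl4, an inhibitor of lipoprotein lipase, likewise exceeded the foci (2.56 ± 0.32) and was not called against normal liver (-0.84 ± 0.32). Cdh17, a cadherin of gut and some liver epithelium, was 18.6, 37.1 and 30.1 in the foci, 257, 107 and 216 in AAF/PH and 401, 422 and 443 in normal liver, so that AAF/PH liver lay between the other groups (2.72 ± 0.32 against the foci). Igfbp1 missed the threshold without AAF/PH animal 3. Npy lost the call on log2(value + 16) and without placebo foci animal 1. A2m was no longer called after median centring, on log2(value + 16), over all probe sets, without AAF/PH animal 1 or 3 and without placebo foci animal 1, 2 or 3.
Among genes lower in AAF/PH liver than in the foci, 3 antioxidant genes were among the largest differences: Slc7a11, the cystine carrier (257, 169 and 334 in the foci, 14.1, 7.53 and 7.55 in AAF/PH liver, -4.72 ± 0.53), Nqo1, a quinone reductase (496, 447 and 669 against 22.9, 31.2 and 24.1, -4.36 ± 0.45), and Gclm, of glutathione synthesis (1145, 1099.7 and 1410.1 against 74.96, 38.8 and 68.4, -4.37 ± 0.39). Nqo1 and Slc7a11 were not called between AAF/PH and normal liver (-0.14 ± 0.45 and 0.39 ± 0.53), whereas Gclm was called lower than normal (-1.81 ± 0.39). The desaturases Fads2, Fads1 and Scd were 773, 764 and 678 (geometric means) in the foci against 28.1, 37.2 and 35.7 in AAF/PH liver, differences of -4.78 ± 0.41, -4.36 ± 0.38 and -4.25 ± 0.44. Serpina3c (-4.71 ± 0.48), Hsd17b2, a steroid dehydrogenase (-4.08 ± 0.33), and Defb1, an epithelial defensin (-4.06 ± 0.39), were lower as well. Of 27 oval and duct markers 7 were called higher than in the foci and 1 lower. Krt19 (96.2, 60.5 and 273 in the foci) and Cd24 (217, 188 and 192) differed by -0.50 ± 0.45 and 0.15 ± 0.30, neither called. The class II genes RT1-Bb (0.41 ± 0.30) and Cd74 (0.18 ± 0.42) were not called either.

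**Figure D5:**
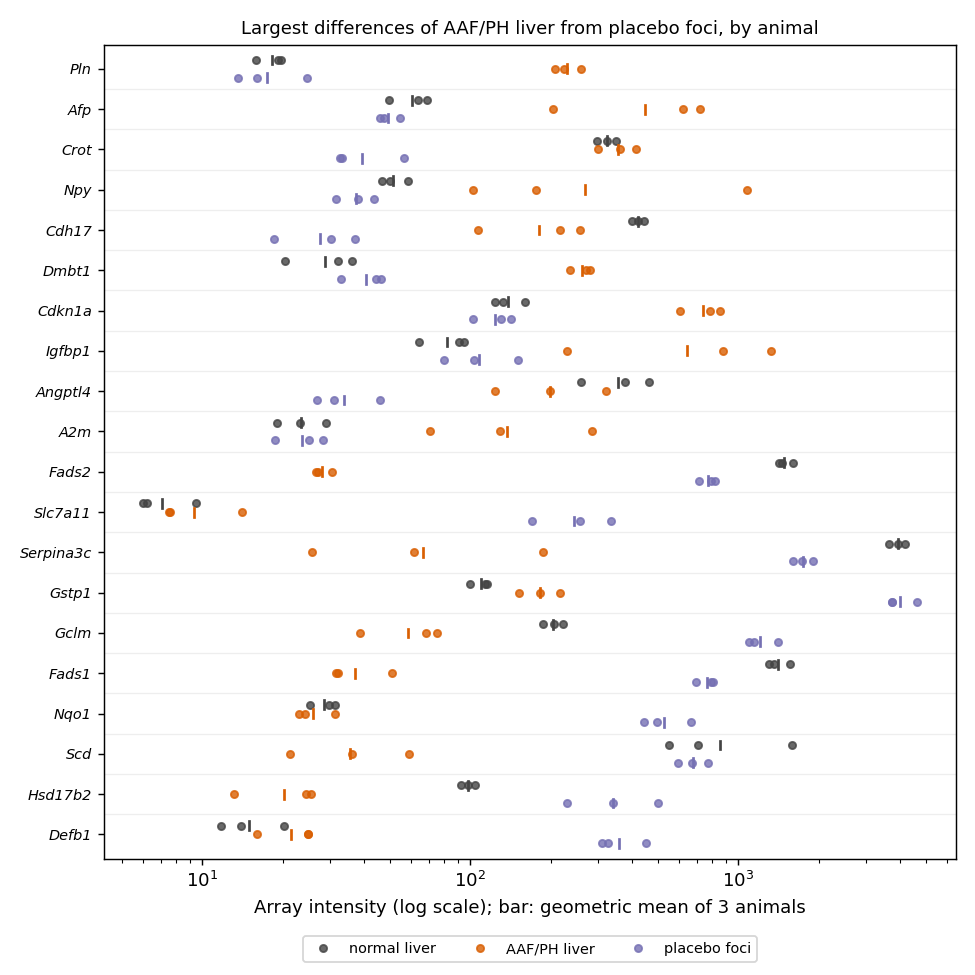
Intensity (log axis) of the 20 genes named by size in the comparison of AAF/PH liver with placebo foci, in each of 3 normal, 3 AAF/PH and 3 placebo foci animals (points). Pln, Afp and Cdkn1a stand apart in AAF/PH liver alone, whereas Nqo1, Slc7a11 and Gstp1 stand apart in the foci.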

How the data were processed

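RNA (150.0 ng per sample, per the labels' protocols) from microdissected fixed liver was hybridised to Rat Gene ST 1.0 arrays. The deposited values are linear intensity per probe set; the submitters' processing notes name Partek 6.6 and RMA, and the steps beyond these names are not given in the sources used here. No detection call, background level or batch is in the files or labels, so a cause of that kind was not tested, and the small number of arrays limits the precision. The labels call the replicates biological, taken here as animals.
All 14 arrays were read, and 3 arrays of 1 rapamycin animal, which enters the spread only, were averaged on the log2 scale, leaving 12 animals in 4 groups. Log2 was taken with no pseudocount and no further scaling. Of 28826 probe sets, 15209 carried 1 gene symbol in the platform annotation, 306 several and 13311 none. The probe set of highest mean stood for each of 14497 genes, of which 494 had more than 1. One limma fit (lmFit and eBayes, limma 3.58.1, R 4.3.3, data.table package 1.17.8) over all groups gave both contrasts, with 8 residual and 6.38 prior degrees of freedom, and Benjamini-Hochberg adjusted p-values below 0.05 were calls. The scripts were tested on simulated data. Counts and plots used Python 3.11.15, pandas 2.3.3 and matplotlib 3.10.9.
Genes named by size were the 30 largest called, non-overlapping changes in each direction against normal liver and the 10 largest against placebo foci, passing over predicted genes, odorant receptors and small RNAs. From each of 40 gene lists up to 8 called members of smallest p, up to 3 that went against the majority and uncalled defining markers could be named. Other genes were chosen after their values were seen, and the members and lists were chosen with earlier results of these data known. RefSeq promoter windows (GRCr8) matched 11945 genes by gene identifier, and 2552 had none. Alternatives covered scaling, low levels, pseudocount, probe sets, arrays in the fit, array weights, the variance prior, the replicate number as a block and leaving out each animal.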

Additional observations from a re-analysis of the deposited data

Results flagged for a closer look

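The comparisons above used probe sets with a single gene symbol. Among the 13617 probe sets without one, tested in the limma fit of all probe sets, 761 were called higher and 569 lower in AAF/PH than in normal liver, which is 9.8% of them against 16.9% of the probe sets with 1 symbol. Of these, 12 were at least 8-fold higher and 22 at least 8-fold lower. Probe set 10887004 had the largest rise, from a geometric mean intensity of 13.87 to 977.3 (6.14 ± 0.60 on the log2 scale, SE, limma adjusted p = 3.35e-05), followed by probe set 10886884 (5.301 to 266.1, 5.65 ± 0.59). Probe set 10877217 had the largest fall, from 2994 to 21.23 (-7.14 ± 1.00, limma adjusted p = 4.77e-04), followed by probe set 10727438 (602.2 to 12.92, -5.54 ± 0.28). The genes behind these 4 probe sets are not named here. Groups of 3 animals are too small to be screened for outlying samples.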

How the results depend on the processing

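No called gene that was followed individually changed direction under any alternative. Against normal liver (2900 called, 1093 higher, 1807 lower), calls came to 5114 (2295 higher, 2819 lower) with only the 6 arrays, 4854 (2126 and 2728) without the rapamycin foci and 7995 (4225 and 3770) with array weights, whose estimation gave convergence warnings. Higher calls came to 524 after median centring, 659 with low-level genes removed (7248 genes tested) and 1697 over all 28826 probe sets. Leaving out 1 animal gave 1552 to 2717 calls, 499 to 887 higher and 1053 to 1830 lower. Against placebo foci (608 called, 228 higher, 380 lower), calls came to 399 (144 higher) after median centring, 1039 (469 higher) after quantile normalization, 1330 (398 higher, 932 lower) with only the 6 arrays, 1581 (519 and 1062) without the rapamycin foci and 2009 (937 and 1072) with array weights. On log2(value + 16) 50.6% of these calls were higher, against 37.5%. Leaving out 1 animal gave 330 to 448 calls, 123 to 185 higher and 185 to 263 lower. The cause of these shifts was not tested. With the replicate number as a block, 2280 genes (769 higher, 1511 lower) and 429 genes (163 and 266) were called, but the labels give no pairing, and the deviations of same-numbered AAF/PH and normal animals from their group means correlated at 0.02, 0.30 and 0.18 across genes. Of 483 individually followed genes against normal liver, 76 lost the call after median centring, 63 after quantile normalization, 52 under the block and 53 to 130 on leaving out 1 animal. Genes dim on every array cannot be set apart from background here.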
